A study of Mus musculus with 67 samples.

Results

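The Ly6 surface antigen genes followed here were Ly6c1, Ly6c2, Ly6a, Ly6e, Ly6i and Ly6d, which were found by symbol and made up 6 of the 24421 genes listed in the study's 3 expression tables. Messenger RNA was captured on oligo-dT beads from flow-sorted mouse monocytes and their marrow progenitors, and 67 libraries in 28 groups were sequenced. The gene targeted in the knockout mice was Cebpb, which encodes the transcription factor C/EBPb; the knockout allele was not described in the labels.

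The knockout table held blood monocytes of 16-week-old ko and wt mice on a mixed background. In ko mice the Ly6C+ and Ly6Cint gates were sampled, and in wt mice the Ly6C+, Ly6Cint and Ly6C- gates (n = 2 each); a ko Ly6C- group was not analysed here. The labels did not say which strain's Ly6 chromosome segment each mixed-background mouse carried. The same table held MDP (monocyte and dendritic cell progenitors), cMoP (common monocyte progenitors) and Ly6C+ monocytes from the marrow of 8-week-old C57BL/6 mice (n = 2 each). The second table held 7-week-old C57BL/6 mice, with MDP (n = 4), cMoP (n = 4), Ly6C+ (n = 3) and Ly6C- (n = 4) cells from marrow and Ly6C+ (n = 4), Ly6Cint (n = 3) and Ly6C- (n = 3) monocytes from blood. In the third table, marrow Ly6C+ monocytes of 8-week-old C57BL/6 mice were profiled before transfer and as grafts recovered from spleen or blood 24, 36 and 48 h after transfer, beside the hosts' own Ly6C+, Ly6Cint and Ly6C- monocytes of the spleen or blood at 24 h (n = 2 each). Titles of the host libraries name these gates by Gr1 (P, INT and M), and they are called Ly6C+, Ly6Cint and Ly6C- here. Marrow and blood cells of the first 2 tables had been enriched for CD115, the receptor for colony-stimulating factor 1, before sorting. Nothing in the labels said whether libraries of a group came from separate mice, so p-values measure the spread between libraries, which may be technical.

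Ly6 proteins are small, disulphide-rich surface proteins, most of them tethered to the outer membrane by a glycosylphosphatidylinositol (GPI) anchor. Ly6c1 and Ly6c2 encode the antigen Ly6C, the marker by which mouse monocytes are divided into classical Ly6C+ and patrolling Ly6C- cells. Ly6a encodes Sca-1, a marker of stem cells and of lymphocytes; Ly6e encodes a widely expressed, interferon-inducible member known from virus infection; Ly6d is used to mark cells of the B lineage; and Ly6i is a close relative of Ly6a and Ly6c. The genes lie in 1 cluster on chromosome 15, while Cebpb lies on chromosome 2.

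The sequences of the Ly6C pair are given because the results turn on how differently these near-identical genes behaved. In the reading frame, 387 of 396 bases were identical (97.7%). The changes from Ly6c1 to Ly6c2, counted from 1 at the first base of the reading frame, were C8G, T10A, A16G, G31T, C36G, A65G, G254A, T327C and G376A. The promoters were less alike, with 208 of 266 aligned bases identical (78.2%) beside 68 bases in gaps. RefSeq (build GRCm38.p6, minus strand) listed 2 starts for each gene. The first listed was used, and the other was not searched. The 300 bases around the start used lie at chr15:75048788-75049087 for Ly6c1 and chr15:75111922-75112221 for Ly6c2. They run 5′ to 3′ with the motifs found in capitals.
Ly6c1: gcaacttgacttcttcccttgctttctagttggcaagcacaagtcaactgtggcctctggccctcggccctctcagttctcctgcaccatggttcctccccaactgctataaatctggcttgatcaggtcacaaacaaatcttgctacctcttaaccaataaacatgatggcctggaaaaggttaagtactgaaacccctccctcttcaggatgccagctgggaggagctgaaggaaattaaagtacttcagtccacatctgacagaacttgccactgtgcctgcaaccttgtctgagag
Ly6c2: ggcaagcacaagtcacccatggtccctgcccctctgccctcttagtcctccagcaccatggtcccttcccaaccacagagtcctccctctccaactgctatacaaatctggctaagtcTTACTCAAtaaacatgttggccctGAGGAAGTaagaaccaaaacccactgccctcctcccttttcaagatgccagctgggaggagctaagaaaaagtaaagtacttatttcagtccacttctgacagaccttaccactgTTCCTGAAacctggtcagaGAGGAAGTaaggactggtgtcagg

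The motifs searched on both strands were TTNNGNAA for C/EBP factors, GAGGAAGT for PU.1 and, for interferon response elements, GAAA followed after any 2 bases by GAAA, and none of their matches overlapped. The Ly6c2 window held the C/EBP motif at positions -132 to -125 and 7 to 14, counted with the start used as 0, and the PU.1 motif at -108 to -101 and 26 to 33. The Ly6c1 window held none of them, which says only that these letters are absent from that window. Among 27025 RefSeq promoter windows of this length, 40.7% held the C/EBP motif, 3.28% the PU.1 motif and 3.49% the interferon motif. A match is a description of the letters and not of binding.

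Levels are given as reads per 1000000 reads of the library (RPM), and a gene was called changed at an adjusted p under 0.05 in a limma fit over all genes of its table that passed a low-value filter, with the log2 ratio on the log2(RPM + 1) scale. All 6 members passed the filter in each table. The 7-week libraries held 577690 to 3643327 reads on listed genes, and those with ko, wt and 8-week cells held 942751 to 5478761. In the transfer table the scale was reads on listed genes, estimated at 503000 to 1784000 in 25 of the 26 libraries. In bulk libraries, fewer expressing cells and less RNA per cell cannot be told apart.

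Of the 6 members, Ly6c1 differed most between ko and wt monocytes, and it was higher in ko. The targeted gene itself had 115 and 57.2 RPM in ko Ly6C+ monocytes, against 804 and 693 RPM in wt Ly6C+ monocytes. In Ly6Cint monocytes Cebpb had 186 and 67.1 RPM in ko, against 1734 and 1242 RPM in wt. It fell by 3.19 ± 0.38 (SE) on the log2 scale in Ly6C+ cells (limma adjusted p = 0.000551) and by 3.70 ± 0.38 in Ly6Cint cells (limma adjusted p = 4.82e-05), so the libraries matched their labels, while reads of the gene remained.

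Ly6c1 had 560 and 640 RPM in ko Ly6C+ monocytes (859 and 985 reads), against 19.0 and 28.6 RPM in wt Ly6C+ monocytes (86 and 94 reads). Every ko library lay far above every wt library, and the means differed 25.2-fold, 600 against 23.8 RPM. The log2 ratio was 4.63 ± 0.62 (limma adjusted p = 0.00132), the 5th highest of 11388 genes tested. Of the 6 members 1 was called in this comparison, higher, where 1.26% of all tested genes were called.

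The same gene had 68.5 and 133 RPM in ko Ly6Cint monocytes, against 1.46 and 6.81 RPM in wt Ly6Cint monocytes, the wt values resting on 10 and 18 reads. The groups again did not overlap, and the means differed 24.3-fold. The log2 ratio was 4.46 ± 0.62 (limma adjusted p = 0.000536), also the 5th highest of the table. The ko effect in Ly6Cint minus that in Ly6C+ cells was -0.17 ± 0.87 (limma adjusted p = 1), an estimate too wide to show that the effects were alike. In the wt Ly6C- gate Ly6c1 had 1.00 and 8.73 RPM, and these libraries overlapped those of wt Ly6Cint.

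Ly6c2, the other gene of the antigen, had 2233 and 2364 RPM in ko Ly6C+ monocytes, against 1620 and 2275 RPM in wt Ly6C+ monocytes. The groups overlapped, and the log2 ratio was 0.26 ± 0.50 (limma adjusted p = 0.99). In Ly6Cint cells it had 347 and 470 RPM in ko, against 93.7 and 185 RPM in wt. There the groups did not overlap and the means differed 2.94-fold, but the log2 ratio of 1.61 ± 0.50 did not pass (limma adjusted p = 0.0728); it passed in 3 of 14 alternative settings, among them leaving out the second wt Ly6Cint library (limma adjusted p = 0.0456), and the adjusted p ranged 0.0301 to 0.353 over all of them. Together the Ly6C genes had 2793 and 3004 RPM in ko Ly6C+ cells, against 1639 and 2303 RPM in wt Ly6C+ cells. The ko and wt gates were sorted by Ly6C, the antigen that Ly6c1 and Ly6c2 encode. The levels of both genes within a gate, and their ko to wt ratios, were therefore set in part by the sort.

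**Figure D1:**
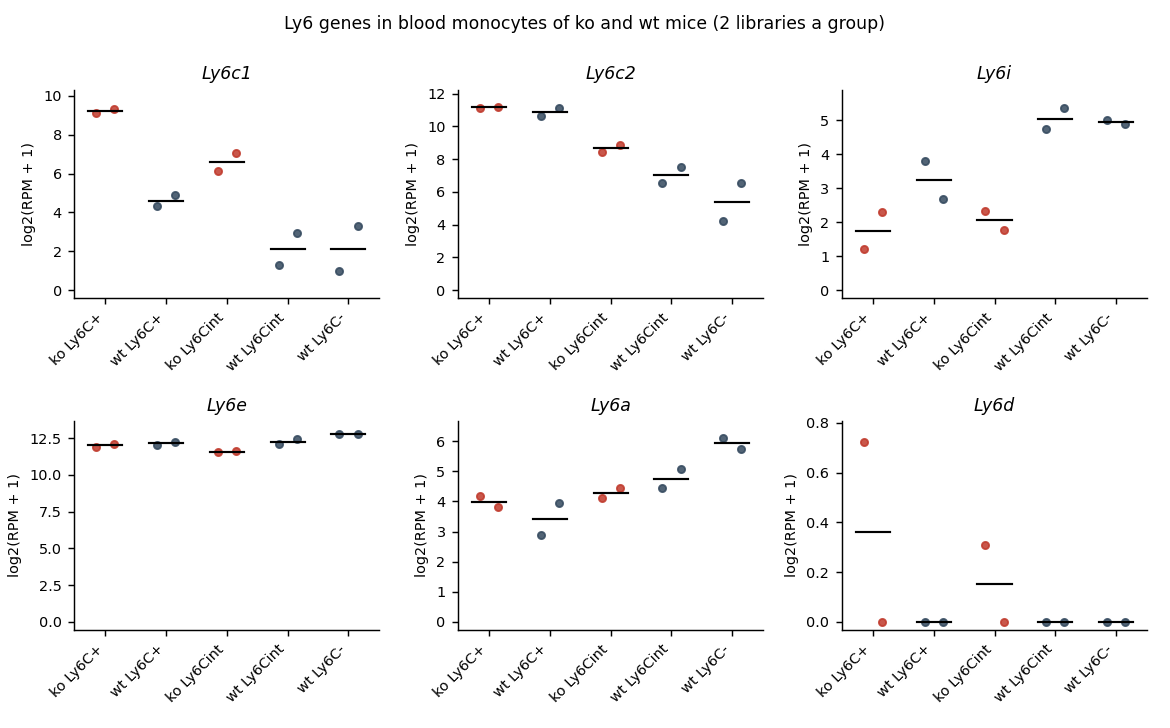
Level of each Ly6 gene as log2(RPM + 1) in blood monocytes of ko (red) and wt (blue-grey) mice, by sorted gate; points are libraries, bars are means of 2 libraries, and each panel has its own scale. Ly6c1 lay far higher in ko than in wt in both gates, while Ly6c2 overlapped between ko and wt in the Ly6C+ gate.

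Within the pair, Ly6c1 took 20.1% and 21.3% of the Ly6C reads in ko Ly6C+ libraries (exact 95% binomial intervals 18.9 to 21.3% and 20.1 to 22.5%), against 1.16% and 1.24% in wt Ly6C+ libraries (0.926 to 1.43% and 1.0 to 1.52%). In Ly6Cint cells the share was 16.5% and 22.0% in ko (14.8 to 18.3% and 20.3 to 23.8%), against 1.54% and 3.56% in wt (0.74 to 2.81% and 2.12 to 5.56%). The intervals cover counting error only. No ko library came near a wt library of its gate, and the mean shares were 20.7% and 19.2% in ko Ly6C+ and ko Ly6Cint cells, against 1.2% and 2.55% in the wt cells of those gates. Divided by transcript length, the mean shares were 20.3% and 18.8% in ko, against 1.17% and 2.48% in wt.

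The ratio of Ly6c1 to Ly6c2 was 20.6-fold higher in ko than in wt in Ly6C+ cells and 7.19-fold higher in Ly6Cint cells. Each of these comparisons of 2 against 2 libraries can reach no lower than p = 0.333, which both gave (exact two-sided permutation test). With libraries exchanged within their gates, the ratio was 12.2-fold higher in ko (log2 difference 3.61), and the exact two-sided permutation p was 0.0556, the smallest that the 36 arrangements allow. The direction was the same in 4 of 4 ko libraries. The 36 arrangements and the 4 libraries treat the gates as independent. Titles share library numbers between the gates of a genotype, so both gates may have been sorted from the same mice. If so, the arrangements are fewer and the joint p can reach no lower than 0.333, as within each gate. The labels do not settle this.

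Reads of near-identical genes can be assigned to the wrong copy, and how the authors' pipeline divided them and how long the reads were is not given in the sources used here. Of all 36-base stretches of the Ly6c1 transcript, 48.8% were found in no other gene and 43.3% were shared with Ly6c2, while of 75-base stretches 76.8% were its own and 21.3% were shared. The levels of Ly6c1, Ly6c2 and their relatives Ly6a and Ly6i are uncertain to that extent. Per kilobase of transcript, Ly6c1 reached 711 ± 66.5 RPM and Ly6c2 2800 ± 113 RPM in ko Ly6C+ cells, against 28.2 ± 8.08 RPM for Ly6c1 and 2370 ± 563 RPM for Ly6c2 in wt Ly6C+ cells (SD, n = 2 each).

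**Figure D2:**
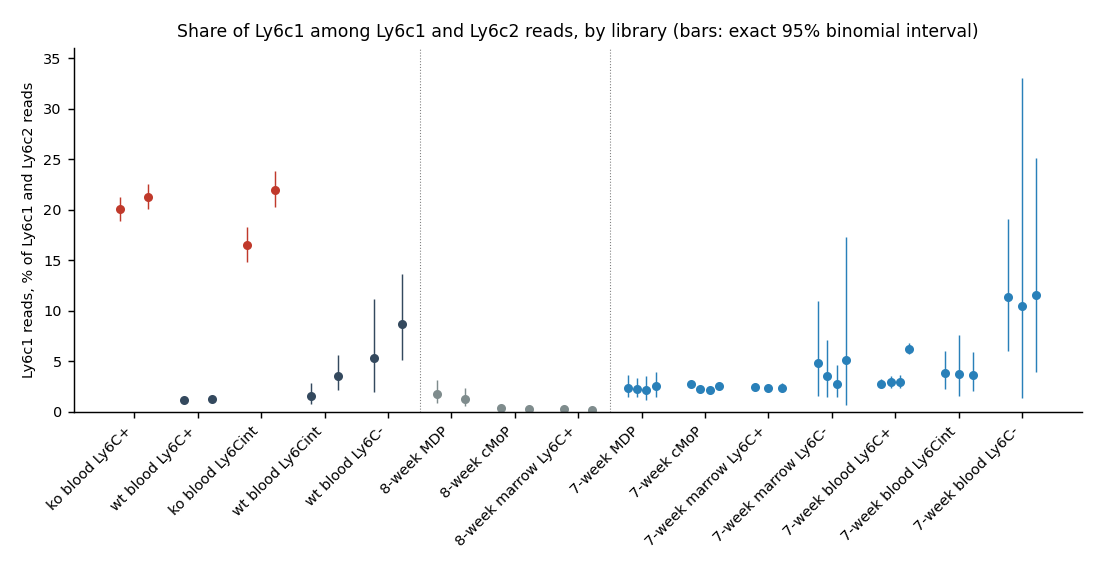
Share of Ly6c1 among the reads of Ly6c1 and Ly6c2, in percent, for each library of the knockout table (left and middle) and of the 7-week table (right); bars are exact 95% binomial intervals, which are wide where few Ly6C reads were counted. The ko libraries lie between 16.5 and 22.0%, above all wt libraries, and the 7-week blood Ly6C- libraries lie between 10.5 and 11.6%.

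Ly6i changed the other way. It had 4.04 and 2.42 RPM in ko Ly6Cint monocytes (17 and 9 reads), against 25.6 and 40.1 RPM in wt Ly6Cint monocytes (175 and 106 reads). The groups did not overlap, the mean was 10.2-fold lower in ko, and the log2 ratio was -2.99 ± 0.57 (limma adjusted p = 0.00488), the 20th lowest of 11388. Leaving out the second ko Ly6Cint library lost the call (limma adjusted p = 0.0732). In Ly6C+ cells Ly6i had 1.30 and 3.90 RPM in ko, against 13.0 and 5.47 RPM in wt, without overlap, and the log2 ratio of -1.50 ± 0.57 did not pass (limma adjusted p = 0.326). The wt Ly6C- libraries had 31.3 and 28.8 RPM, within the range of the wt Ly6Cint libraries.

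Ly6e had 3006 and 3100 RPM in ko Ly6Cint monocytes, against 4338 and 5564 RPM in wt Ly6Cint monocytes. The groups did not overlap, and it fell by 0.69 ± 0.19 on the log2 scale (limma adjusted p = 0.0444), a call lost in 8 of 14 alternative settings, among them leaving out the second wt Ly6Cint library (limma adjusted p = 0.195) or either ko Ly6Cint library (limma adjusted p = 0.2 without the first and 0.189 without the second). In Ly6C+ cells it had 3911 and 4327 RPM in ko, against 4278 and 4786 RPM in wt, with overlapping groups (log2 ratio -0.14 ± 0.19, limma adjusted p = 0.963). In Ly6Cint cells 3 of the 6 members were thus called, 1 higher and 2 lower, beside 6.33% of all tested genes.

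Ly6a had 17.0 and 13.0 RPM in ko Ly6C+ monocytes, against 6.39 and 14.6 RPM in wt Ly6C+ monocytes, and the groups overlapped. In Ly6Cint cells it had 16.4 and 20.9 RPM in ko, against 20.8 and 32.5 RPM in wt. Neither log2 ratio passed (0.56 ± 0.41, limma adjusted p = 0.793, and -0.47 ± 0.41, limma adjusted p = 0.619). Ly6d had 1 read in each of 1 ko Ly6C+ and 1 ko Ly6Cint library and none in any other ko or wt library, where a count of 0 allows at most 0.438 to 1.54 RPM in wt. For Ly6c2, Ly6i, Ly6a and Ly6e, as for Ly6c1, the difference between the ko effects in Ly6Cint and Ly6C+ cells did not pass (limma adjusted p between 0.86 and 1, with 0.00878% of all tested genes called).

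Between gates of 1 genotype, Ly6i, Ly6a and Ly6e did not pass from Ly6C+ to Ly6Cint cells. The log2 ratio of Ly6Cint to Ly6C+ cells for Ly6i was 0.31 ± 0.57 in ko (limma adjusted p = 0.904) and 1.80 ± 0.57 in wt (limma adjusted p = 0.101). For Ly6a it was 0.30 ± 0.41 in ko (limma adjusted p = 0.847) and 1.33 ± 0.41 in wt (limma adjusted p = 0.087). Of all tested genes, 1.64% were called between these gates in ko and 4.29% in wt. Between wt Ly6C- and wt Ly6Cint cells, where 0.448% were called, the adjusted p of these members was 0.314 or higher.

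Marker genes of the sorted cells moved in the same comparisons. The summed level of 9 monocyte markers was 10400 to 11800 RPM in ko Ly6C+ cells and 15100 to 17700 RPM in wt Ly6C+ cells, and 5880 to 5960 RPM in ko Ly6Cint cells and 12400 to 12600 RPM in wt Ly6Cint cells. All 9 were detected in every ko and wt group, and in Ly6Cint cells 1 rose and 4 fell, among them Csf1r, which encodes CD115 (log2 ratio -1.13 ± 0.22, limma adjusted p = 0.0055). Their part in the Ly6 results was not tested. Ly6c1 is also expressed by endothelium and T cells. Of 7 endothelial markers, 6 were at 0 in ko Ly6C+ cells, where the sum of the 7 was 9.13 to 10.4 RPM, against 3.31 to 3.95 RPM in wt Ly6C+ cells. In ko Ly6Cint cells 1 of the 7 was at 0 and the same sum was 10.2 to 13.4 RPM, against 12.9 to 22.2 RPM in wt Ly6Cint cells. Markers of T and NK cells summed to 0 to 1.9 RPM in ko libraries and 0 to 0.912 RPM in wt Ly6C+ and Ly6Cint libraries. The part of either cell type in the Ly6c1 result was not tested.

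Several Ly6 genes are known interferon targets, and the interferon response genes themselves rose in part. Of 30 tested, 8 rose and 0 fell in ko Ly6Cint cells, with a median log2 ratio of 0.75 against 0.07 over all tested genes. Those with the smallest p were Ifi44 (4.52 ± 0.42), Isg15 (2.00 ± 0.22), Oas2 (1.36 ± 0.28) and Oasl2 (1.92 ± 0.42). In ko Ly6C+ cells 1 rose and 0 fell, Ifi44 (4.98 ± 0.42), with a median of 0.30 against 0.02. In these Ly6C+ cells edgeR called 2 and DESeq2 called 4 of the list, and in Ly6Cint cells they called 6 and 8. Of the members called in Ly6Cint cells, Ly6e and Ly6i fell and Ly6c1 rose. The part of interferon in the Ly6 results was not tested.

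Genes that build the GPI anchor were counted in the same way. Of 25 tested, limma called 0 in either gate, with 2 and 3 at an unadjusted p under 0.05 in Ly6C+ and Ly6Cint cells. In these gates edgeR called 0 and 1, and DESeq2 called 0 in both. Over all tested genes limma called 1.26% in Ly6C+ and 6.33% in Ly6Cint cells. Among 25 genes, 0 calls is near these shares and does not show that a shift was absent. Of 31 other genes with a Ly6 domain, 28 were listed and 8 could be tested. In Ly6Cint cells 1 was called, Cd177, which encodes a GPI-anchored neutrophil antigen (log2 ratio 1.36 ± 0.36, limma adjusted p = 0.0365). In Ly6C+ cells limma, edgeR and DESeq2 each called 0, with 1 at an unadjusted p under 0.05 by limma. For 8 genes these counts, too, cannot be told from the shares over all tested genes.

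Genes around the Ly6 cluster were examined after the values above had been seen. In ko Ly6C+ cells 1 of 8 tested genes inside the cluster (Ly6c1) and 0 of 7 on its flanks were called. In ko Ly6Cint cells 3 of 8 inside the cluster and 2 of 7 flanking genes were called, with Jrk at -1.63 and Them6 at -1.73 on the log2 scale. Over chromosome 15 as a whole, 1.39% of 433 tested genes were called in Ly6C+ cells, against 1.29% of all genes with a known chromosome, and 7.62% in Ly6Cint cells, against 6.44%.

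In unmanipulated C57BL/6 mice of the 7-week table the members split by gate. Ly6C was itself used in sorting, so the levels of Ly6c1 and Ly6c2 between gates are described without a test. Per kilobase of transcript, Ly6c2 was the most abundant member in marrow Ly6C+ monocytes at 5100 ± 562 RPM (SD, n = 3), and Ly6c1 stood at 120 ± 11.8 RPM there. Ly6e ranged 953 to 1890 RPM per kilobase across the populations, Ly6a 4.22 to 50.8, Ly6d 1.84 to 20.9 and Ly6i 0.0426 to 12.5.

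Ly6c2 averaged 3504 RPM in cMoP, against 181 RPM in MDP, and was 19.3-fold higher. Ly6c1 averaged 86.9 RPM in cMoP, against 4.29 RPM in MDP, and was 20.3-fold higher. Neither overlapped between these progenitors, where 9.25% of all tested genes were called. In the 8-week libraries Ly6c2 had 3355 and 4122 RPM in cMoP, against 258 and 279 RPM in MDP. There Ly6c1 had 11.8 and 9.99 RPM in cMoP, against 4.54 and 3.52 RPM in MDP, with 4.85% of all tested genes called. The progenitors of these ages also differed in neutrophil markers, which summed to 3450 to 4290 RPM in 8-week MDP, against 69.5 to 116 RPM in 7-week MDP. Their part in the Ly6 levels was not tested. In order of level in the 7-week libraries, Ly6c2 averaged 4192 RPM in marrow Ly6C+ cells, 3504 RPM in cMoP and 2709 RPM in blood Ly6C+ cells. It averaged 273 RPM in blood Ly6Cint cells, 181 RPM in MDP, 122 RPM in marrow Ly6C- cells and 30.1 RPM in blood Ly6C- cells. The libraries of marrow Ly6C+ cells and cMoP overlapped, as did those of each neighbouring pair from blood Ly6Cint cells downward. Ly6c1 followed a like order, with 106 RPM in blood Ly6C+ cells, 102 RPM in marrow Ly6C+ cells and 86.9 RPM in cMoP, whose libraries overlapped. It averaged 10.6 RPM in blood Ly6Cint cells, and the libraries of MDP, marrow Ly6C- and blood Ly6C- cells, with means of 3.86 to 4.29 RPM, overlapped.

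Within the Ly6C- gate, blood was compared with marrow. Both groups were sorted by Ly6C, so their Ly6c1 and Ly6c2 levels, and the ratios between tissues, were set in part by the sort. Ly6c2 had 53.9, 10.9 and 25.4 RPM in blood Ly6C- libraries, against 48.8, 125, 274 and 41.2 RPM in marrow Ly6C- libraries. The groups overlapped, the log2 ratio was -1.84 ± 0.42 (limma adjusted p = 0.0117), and the call was lost in 4 of 17 alternative settings, among them without blood library 2 or 3 (limma adjusted p = 0.176 and 0.0544) or marrow library 3 (limma adjusted p = 0.0542). It was the member called there, beside 2.54% of all tested genes. The sum of 10 neutrophil markers was 26.9 to 659 RPM in marrow Ly6C- libraries, against 13.3 to 16.7 RPM in blood Ly6C- libraries. Their part in the Ly6c2 result was not tested. The share of Ly6c1 among Ly6C reads was 11.2 ± 0.586% in blood Ly6C- cells (SD, n = 3) and 4.05 ± 1.14% in marrow Ly6C- cells (SD, n = 4), without overlap.

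Ly6a and Ly6i ran opposite to the Ly6C pair. Ly6a had 69.5, 38.6 and 37.4 RPM in blood Ly6C- monocytes, against 6.07, 8.45, 8.80 and 13.8 RPM in blood Ly6C+ monocytes. In marrow it had 43.3, 25.5, 36.3 and 26.7 RPM in Ly6C- cells, against 6.18, 3.04 and 3.62 RPM in Ly6C+ cells. Neither pair of groups overlapped. The log2 ratios of Ly6C- to Ly6C+ were 2.26 ± 0.34 in blood (limma adjusted p = 1.06e-05) and 2.70 ± 0.34 in marrow (limma adjusted p = 2.07e-07), and the difference between the tissues did not pass (-0.44 ± 0.48, limma adjusted p = 0.58, with 17.8% of all tested genes called).

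Ly6i had 23.7, 7.71 and 12.0 RPM in blood Ly6C- monocytes, against 4.55, 2.30, 0 and 1.72 RPM in blood Ly6C+ monocytes. In marrow it had 14.4, 14.4, 14.6 and 3.34 RPM in Ly6C- cells, against 1.54, 0 and 0.725 RPM in Ly6C+ cells. The groups did not overlap in either tissue, although the Ly6C+ values were at or near the limit of counting. The log2 ratios were 2.41 ± 0.49 in blood (limma adjusted p = 0.000529) and 2.78 ± 0.49 in marrow (limma adjusted p = 3.42e-05).

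Both genes already differed in the intermediate gate. In blood Ly6Cint monocytes Ly6a had 35.9, 32.4 and 25.1 RPM and Ly6i 13.4, 16.2 and 10.4 RPM, above every blood Ly6C+ library. The log2 ratios of Ly6Cint to Ly6C+ were 1.68 ± 0.34 for Ly6a (limma adjusted p = 0.000653) and 2.41 ± 0.49 for Ly6i (limma adjusted p = 0.000643). From Ly6Cint to Ly6C- cells the ratios did not pass (0.58 ± 0.36 for Ly6a, limma adjusted p = 0.33, and 0.00 ± 0.52 for Ly6i, limma adjusted p = 1). Of all tested genes, 20.3% were called between Ly6C- and Ly6C+ cells of blood, 40.1% between those of marrow 27.2% between Ly6Cint and Ly6C+ cells and 8.87% between Ly6C- and Ly6Cint cells, and the first 3 comparisons had median log2 ratios of 0.00, -0.28 and -0.21, so that calls as such were common.

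The 16-week wt blood libraries gave further values for the same contrast. Ly6a had 68.7 and 52.9 RPM in wt Ly6C- cells, against 6.39 and 14.6 RPM in wt Ly6C+ cells, and rose by 2.51 ± 0.41 on the log2 scale (limma adjusted p = 0.000747) beside 10.5% of all tested genes called. Ly6i was higher in Ly6C- cells without overlap but did not pass (1.70 ± 0.57, limma adjusted p = 0.0719). Ly6e had 7186 and 7128 RPM in wt Ly6C- cells, against 4278 and 4786 RPM in wt Ly6C+ cells, and passed (0.66 ± 0.19, limma adjusted p = 0.0372), a call lost in 7 of 14 alternative settings, including each of the 4 that left out 1 library (limma adjusted p = 0.111 to 0.222). In the 7-week blood libraries the Ly6e groups overlapped between the gates, with a log2 ratio of 0.09 ± 0.14 (limma adjusted p = 0.71).

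**Figure D3:**
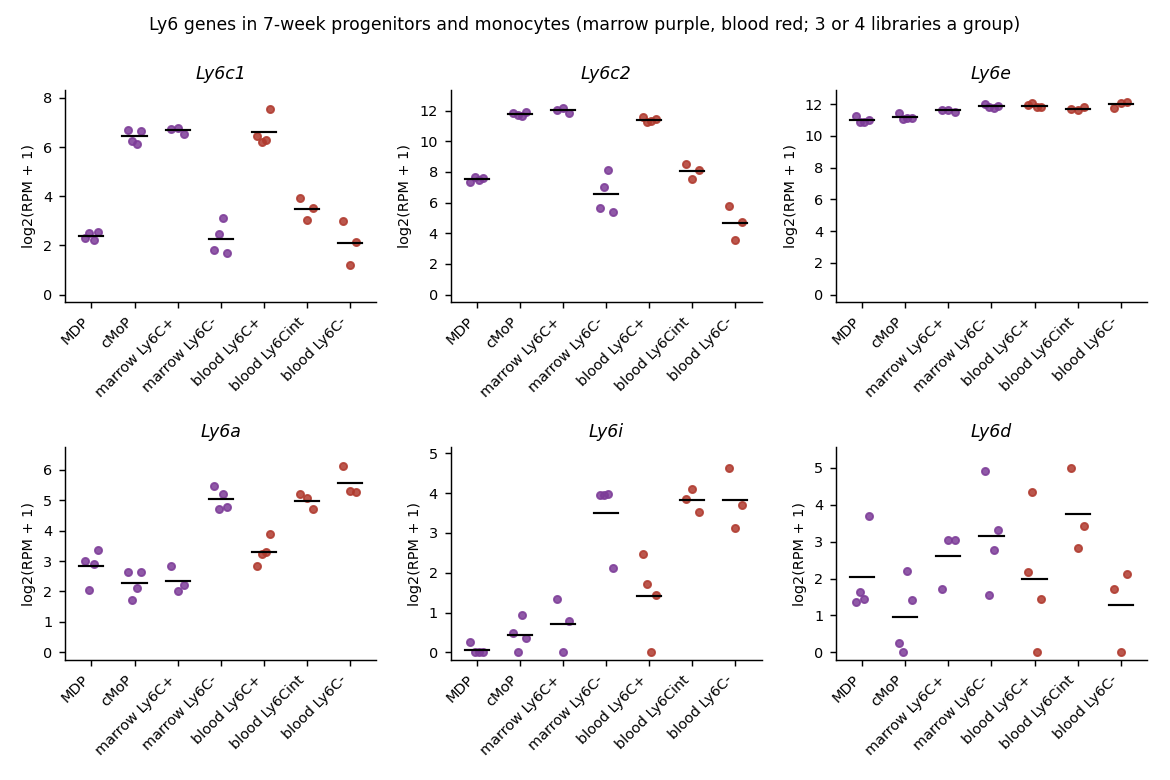
Level of each Ly6 gene as log2(RPM + 1) in the 7-week populations, marrow in purple and blood in red; points are libraries and bars are means of 3 or 4 libraries. Ly6c1 and Ly6c2 are high in cMoP and Ly6C+ cells, Ly6a and Ly6i are high in Ly6Cint and Ly6C- cells, Ly6e is high throughout, and Ly6d spreads widely within most populations.

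Ly6e, high in every population, had means of 2053 RPM in MDP, 2313 RPM in cMoP and 3098 RPM in marrow Ly6C+ cells. Between marrow Ly6C+ cells and cMoP the groups did not overlap, and Ly6e rose by 0.43 ± 0.14 on the log2 scale (limma adjusted p = 0.018), where 37.7% of all tested genes were called with a median of -0.17. The call was lost without marrow Ly6C+ library 1 or 3 (limma adjusted p = 0.0553 and 0.067) or cMoP library 2 (limma adjusted p = 0.0602). Between blood and marrow Ly6C+ cells Ly6a was the member called, with means of 9.27 RPM in blood and 4.28 RPM in marrow (log2 ratio 0.95 ± 0.34, limma adjusted p = 0.0375). The Ly6a groups overlapped, the call was lost in 8 of 17 alternative settings (limma adjusted p up to 0.162), including those without any 1 of 2 marrow and 2 blood libraries, and 26% of all tested genes were called there.

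Ly6d varied widely within populations. It ranged 6.07 to 30.9 RPM in blood Ly6Cint cells, 1.96 to 29.4 RPM in marrow Ly6C- cells and 0 to 19.2 RPM in blood Ly6C+ cells. Blood Ly6C- cells, at 0 to 3.34 RPM, did not overlap blood Ly6Cint cells. Its adjusted p stayed at 0.0687 or higher in all comparisons of the 7-week table. In the 8-week marrow libraries it had 0 reads in both Ly6C+ libraries, against 2.19 and 1.25 RPM in cMoP (log2 ratio -1.42 ± 0.38, limma adjusted p = 0.0084, with 36.8% of all tested genes called), a call lost without the first cMoP library (limma adjusted p = 0.0529). A count of 0 there allowed 1.84 to 2.5 RPM, so that the levels cannot be told apart by counting alone.

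Across the 25 libraries of the 7-week table, the gene most like Ly6c1 was Ly6c2 (Pearson r = 0.961 on the log2 scale), followed by Clec5a (0.945) and Sgms2 (0.926). For Ly6c2 the next were Clec5a (0.943) and Ldhb (0.923). Ly6a was most like Bcl2a1d (0.957), Dusp16 (0.954) and Bcl2a1a (0.949). Ly6i was most like Rasgrp1 (0.959), Nfe2l2 (0.948) and Rap1b (0.941), and Ly6e was most like Zfp36 (0.966), Bag3 (0.959) and Prr13 (0.958). Ly6d was most like Mzb1 (0.89), Jchain (0.798) and Trp53inp1 (0.689). Between members, Ly6a and Ly6i had r = 0.895 and Ly6c2 and Ly6a r = -0.754. These values describe libraries that fall into 7 populations, and carry no test.

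The share of Ly6c1 differed between tables of the same nominal cells. In marrow Ly6C+ monocytes of C57BL/6 mice it was 0.217 ± 0.0141% in the transfer table before transfer (SD, n = 2), 0.22 ± 0.0424% in the 8-week libraries of the knockout table (SD, n = 2) and 2.37 ± 0.06% in the 7-week table (SD, n = 3). In cMoP it was 0.296 ± 0.0771% at 8 weeks (SD, n = 2) and 2.4 ± 0.311% at 7 weeks (SD, n = 4). Ly6c1 itself had 12.3 and 9.16 RPM in 8-week marrow Ly6C+ libraries and 90.6 to 110 RPM in the 7-week ones, which overlap at no library. Ly6c1 was listed under another transcript in the transfer table than in the knockout and 7-week tables. All 7-week cells were in the 7-week table and all 8-week cells in the others. Age and table can therefore not be told apart here, and no test was made across tables. The sum of 10 neutrophil markers also differed in cMoP, with 3110 to 3800 RPM at 8 weeks and 47.5 to 79.7 RPM at 7 weeks. In marrow Ly6C+ cells it was 456 to 476 RPM at 8 weeks, 350 to 373 RPM before transfer and 351 to 498 RPM at 7 weeks. The part of cell content in the Ly6c1 share was not tested. All ko libraries, at 16.5 to 22.0%, lay above every other library of the 3 tables, although the intervals of some 7-week Ly6C- libraries, which held few Ly6C reads, reached into that range.

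The transfer libraries followed Ly6C+ cells after they had entered a host. The cells before transfer had been sorted as Ly6C+, so their Ly6c1 and Ly6c2 levels were set in part by the sort. Ly6c2 had 4437 and 4010 RPM before transfer. In spleen grafts it had 1124 and 614 RPM at 24 h, 341 and 539 RPM at 36 h and 85.9 and 57.0 RPM at 48 h. In blood grafts it had 487 and 781 RPM at 24 h, 315 and 629 RPM at 36 h and 33.3 and 62.7 RPM at 48 h. It was lower at 24 h than before transfer and lower at 48 h than at 36 h in every library of each tissue.

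Against the cells before transfer, Ly6c2 fell by 2.34 ± 0.44 on the log2 scale in spleen grafts (limma adjusted p = 0.00155) and by 2.77 ± 0.44 in blood grafts (limma adjusted p = 0.000175) at 24 h. Without the second spleen graft library, labelled C, the 24 h spleen call was lost (limma adjusted p = 0.0562). At 48 h against 36 h it fell by 2.60 ± 0.44 in spleen (limma adjusted p = 0.00179) and by 3.25 ± 0.44 in blood (limma adjusted p = 0.000485). At 48 h the log2 ratio to the start was -5.89 in spleen and -6.50 in blood. Between 36 h and 24 h no member passed (limma adjusted p 0.516 or higher in spleen and 0.61 or higher in blood, with 0.579% and 3.21% of all tested genes called). Of all tested genes, 5.8% were called between 24 h spleen grafts and the cells before transfer, 13.3% between 24 h blood grafts and those cells, and 4.89% in spleen and 1.96% in blood between 48 h and 36 h. The medians over all tested genes were -0.21 and -0.53 in the 24 h comparisons, much smaller than the change of Ly6c2.

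While Ly6c2 was lower in grafts than before transfer, Ly6i was higher. Ly6i had 7.45 and 12.3 RPM before transfer. In spleen grafts it had 76.7 and 108 RPM at 24 h, 43.8 and 42.5 RPM at 36 h and 141 and 205 RPM at 48 h, and in blood grafts 88.1 and 73.6 RPM at 24 h, 53.5 and 82.4 RPM at 36 h and 132 and 76.7 RPM at 48 h. Its spleen libraries at 36 h lay below those at 24 h, as those of Ly6c2 did, and that step did not pass. Every graft library lay above the cells before transfer. At 24 h the log2 ratio was 3.12 ± 0.47 in spleen (limma adjusted p = 0.000173) and 2.94 ± 0.47 in blood (limma adjusted p = 0.000195). At 48 h it was 4.01 ± 0.47 in spleen (limma adjusted p = 3.65e-06) and 3.27 ± 0.47 in blood (limma adjusted p = 4.37e-05), with 15% and 17.2% of all tested genes called. At 48 h against 36 h Ly6i passed in spleen (1.95 ± 0.47, limma adjusted p = 0.0196), a call lost in 5 of 11 alternative settings, with single libraries left out in 3 of them (limma adjusted p = 0.0651 to 0.0898).

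The host's own Ly6C- monocytes had less Ly6i than the late spleen grafts. Spleen grafts at 48 h, with 141 and 205 RPM, lay above host spleen Ly6C- cells, with 34.6 and 37.3 RPM (log2 ratio 2.21 ± 0.47, limma adjusted p = 0.0102, 5.44% of all tested genes called). This call was lost in 3 of 10 alternative settings, among them without either host library (limma adjusted p = 0.112 and 0.0746). In blood the 48 h grafts, with 132 and 76.7 RPM, lay above the host Ly6C- libraries, with 47.3 and 69.2 RPM, but the ratio did not pass (0.81 ± 0.47, limma adjusted p = 0.373, 3.72% called). At 24 h spleen grafts lay above host spleen Ly6Cint cells, with 25.9 and 27.6 RPM, and the ratio did not pass (1.73 ± 0.47, limma adjusted p = 0.161, 0.265% called). Among host cells Ly6i was higher in Ly6C- than in Ly6C+ libraries of each tissue without passing (1.16 ± 0.47 in spleen, limma adjusted p = 0.328, 2.77% called, and 1.48 ± 0.47 in blood, limma adjusted p = 0.101, 3.66% called).

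**Figure D4:**
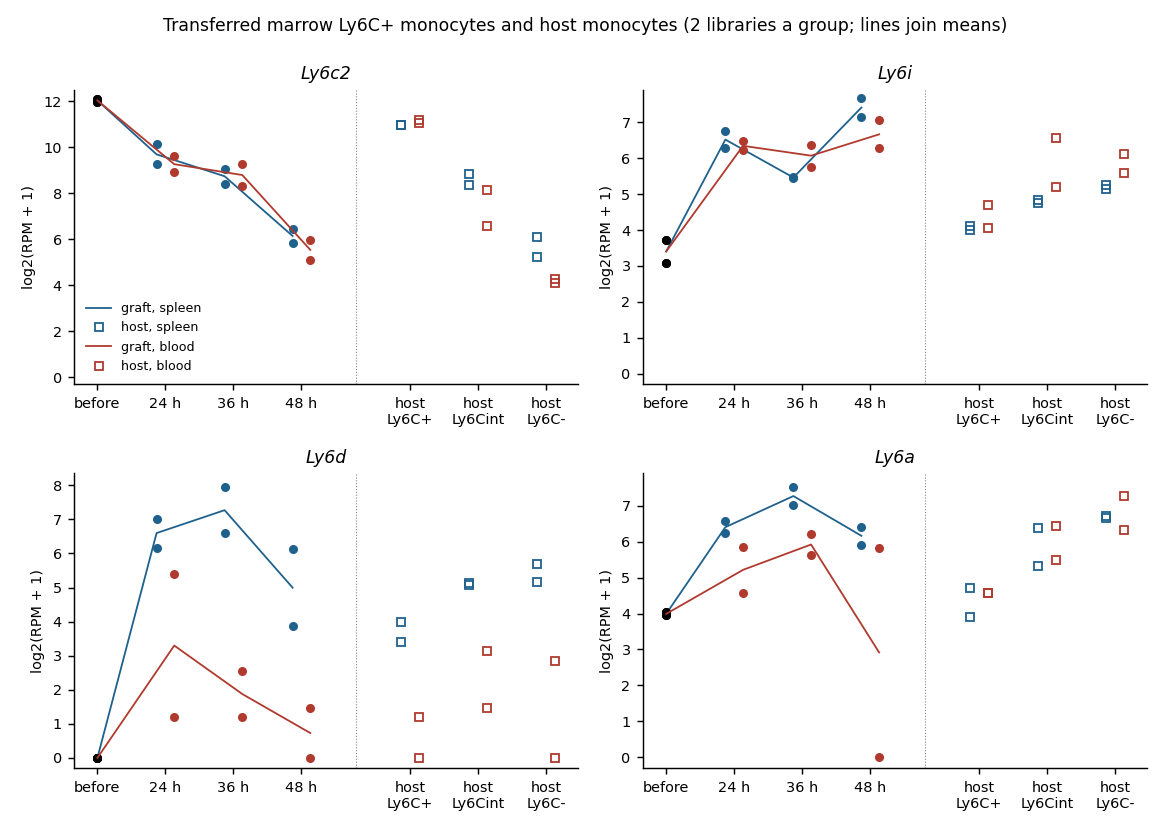
Levels of Ly6c2, Ly6i, Ly6d and Ly6a as log2(RPM + 1) in transferred marrow Ly6C+ monocytes before transfer (black) and 24, 36 and 48 h after it in spleen (blue) and blood (red), with host monocytes at 24 h as open squares by gate; points are libraries and lines join means of 2. In grafts of both tissues Ly6c2 is lower and Ly6i is higher than before transfer, and Ly6d is high in spleen grafts, from 13.6 to 247 RPM.

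Ly6d, the B-lineage member, was listed at 0 in both libraries before transfer. In spleen grafts it had 129 and 71.0 RPM at 24 h, 95.1 and 247 RPM at 36 h and 68.8 and 13.6 RPM at 48 h, against 40.8 and 1.31 RPM, 4.82 and 1.32 RPM, and 0 and 1.75 RPM in blood grafts at the same times. The spleen libraries lay above the blood libraries at each time. Over the 3 times the log2 ratio of spleen to blood grafts was 4.32 ± 0.71 (limma adjusted p = 0.00172), where 3.78% of all tested genes were called. In spleen grafts at 24 h against the cells before transfer Ly6d also passed (limma adjusted p = 0.00129), but no fold is given because the cells before transfer were listed at 0.

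Host monocytes showed the same tissue pattern without passing the test. Ly6d had 14.9 and 9.64 RPM in host spleen Ly6C+ cells, 32.4 and 33.7 RPM in Ly6Cint cells and 34.6 and 50.8 RPM in Ly6C- cells, against 0 to 7.89 RPM in the 6 host blood libraries. The groups did not overlap in any gate. The log2 ratios of spleen to blood were 3.10 ± 1.22 in Ly6C+ cells, 2.79 ± 1.22 in Ly6Cint cells and 4.01 ± 1.22 in Ly6C- cells (limma adjusted p between 0.382 and 1), with 0.0909%, 0.165% and 0.19% of all tested genes called.

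Markers of B cells and of T and NK cells moved with Ly6d. The summed level of 8 such markers was 446 and 253 RPM in spleen grafts at 24 h, 329 and 792 RPM at 36 h and 123 and 132 RPM at 48 h, against 39.9 to 173 RPM in blood grafts, and it was 37.7 and 40.3 RPM before transfer. Of 7 tested, 4 were called higher in spleen than in blood grafts, Vpreb3 (3.29), Cd79a (2.58), Ebf1 (2.05) and Cd79b (1.53 on the log2 scale), with a median of 1.98 against 0.16 over all tested genes. Host spleen monocytes had sums of 85.0 to 374 RPM, against 58.7 to 113 RPM in host blood. All 8 markers were detected in spleen grafts at 24 and 36 h. Markers of T and NK cells summed to 129 and 92.5 RPM in spleen grafts at 24 h, 70.6 and 277 RPM at 36 h and 59.6 and 12.3 RPM at 48 h, against 0 to 76.7 RPM in blood grafts. The sum of 7 markers of plasmacytoid dendritic cells was 488 to 518 RPM before transfer. In spleen grafts it was 684 to 700 RPM at 24 h, 574 to 622 RPM at 36 h and 145 to 315 RPM at 48 h. In blood grafts it was 490 to 658, 384 to 417 and 155 to 328 RPM at those times. The part of lymphocyte or plasmacytoid dendritic cell RNA in the Ly6d result was not tested.

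**Figure D5:**
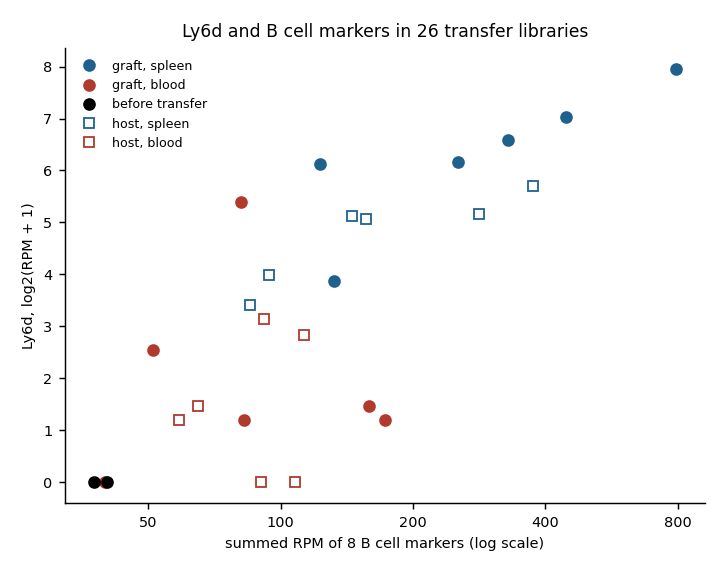
Ly6d as log2(RPM + 1) against the summed RPM of 8 B cell markers (log scale) in the 26 transfer libraries; filled points are grafts and cells before transfer, open squares are host monocytes. Libraries from spleen, in blue, hold the highest values on both axes, and 1 blood graft library with 40.8 RPM of Ly6d has a marker sum within the range of the other blood grafts.

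Ly6a, Ly6e and Ly6c1 changed less surely after transfer. Ly6a had 15.3 and 14.5 RPM before transfer. It had 74.1 and 94.2 RPM at 24 h, 128 and 183 RPM at 36 h and 84.1 and 59.2 RPM at 48 h in spleen grafts, and 57.0 and 22.8 RPM, 48.6 and 72.8 RPM, and 56.1 and 0 RPM in blood grafts at those times. All graft libraries lay above the start except 1 of the 48 h blood grafts, which was listed at 0. At 36 h, when Ly6a was highest in spleen grafts, B cell markers summed to 329 and 792 RPM and markers of T and NK cells to 70.6 and 277 RPM there, against 37.7 and 40.3 RPM and 0.876 and 1.75 RPM before transfer. Their part in the Ly6a values was not tested. The log2 ratio of spleen to blood grafts was 1.93 ± 0.60 and did not pass (limma adjusted p = 0.0725), and that of 24 h spleen grafts to the start was 2.41 ± 1.03 (limma adjusted p = 0.233). Blood grafts at 48 h passed as lower in Ly6a than host blood Ly6C- cells, which had 153 and 78.9 RPM (limma adjusted p = 0.0396), but without the library listed at 0 the call was lost (limma adjusted p = 0.446), as it was without either host library (limma adjusted p = 0.274 and 0.139).

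Ly6e had 6568 and 7541 RPM in blood grafts at 24 h, against 5323 and 4788 RPM before transfer, without overlap. It rose by 0.48 ± 0.11 on the log2 scale (limma adjusted p = 0.00506), while the median of all tested genes was -0.53, and with quantile scaling the sign turned (-0.11). The call was also lost without the second graft library (limma adjusted p = 0.0866) or the second library before transfer (limma adjusted p = 0.102), both labelled B. Against host blood Ly6Cint cells, with 4939 and 5042 RPM, the 24 h blood grafts also passed (0.50 ± 0.11, limma adjusted p = 0.0129, 3.94% of all tested genes called), a call lost in 5 of 10 alternative settings, among them without graft library B (limma adjusted p = 0.113) or host library A (limma adjusted p = 0.0875).

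Ly6c1 was near the counting limit in this table. It had 10.1 and 8.33 RPM before transfer, and 0 to 6.57 RPM in blood grafts with 4 of 6 libraries listed at 0. The 48 h blood grafts passed as lower (limma adjusted p = 0.0168), but both were listed at 0 and no fold is given, and the call was lost in 5 of 10 alternative settings (limma adjusted p up to 0.11 with single libraries left out). In spleen grafts it had 11.8 and 2.19 RPM at 24 h, 21.9 and 10.1 RPM at 36 h and 1.75 and 1.31 RPM at 48 h. Spleen grafts passed as higher than blood grafts (1.98 ± 0.54, limma adjusted p = 0.044), a call lost in 13 of 18 alternative settings, 8 of them with a single library left out (limma adjusted p = 0.0519 to 0.123). Markers of T and NK cells, which can express Ly6c1, summed to 12.3 to 277 RPM in spleen grafts and 0 to 76.7 RPM in blood grafts, and their part in this result was not tested.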

How the data were processed

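Sorted mouse monocytes and progenitors were profiled by RNA sequencing (67 libraries). Per the submitters' processing notes, bcl2fastq, HISAT 0.1.5, SAMtools and HOMER were used with build mm9. The deposited signal values of the 7-week and knockout tables were reads scaled by the authors to 10000000 per library; whole reads were recovered in all 41 libraries (100% of values whole within 0.1 read) and RPM is the value divided by 10. The deposited score values of the transfer table were scaled to a common total over listed genes and rounded; steps could not be resolved in 1 library before transfer. The main test was limma 3.58.1 (trend, R 4.3.3) on log2(RPM + 1), with 1 mean per group over all libraries of a table, among genes with at least 2 RPM in 3 (7-week) or 2 libraries, with Benjamini-Hochberg adjustment over 11373, 11388 and 12096 genes. edgeR 4.0.16 and DESeq2 1.42.0 on the recovered reads were alternatives; they called 132 and 163 genes between ko and wt Ly6C+ cells and 913 and 848 between ko and wt Ly6Cint cells, where limma called 144 and 721. The fit was tested on simulated data. Other alternatives were the pseudocount, the filter, the scaling, array weights, the groups fitted, a replicate block and leaving out each library. Tables were never tested against each other. Sequences came from RefSeq (GRCm38.p6) and transcript lengths and shared stretches from GENCODE transcripts, neither of the authors' build. Named genes were the 6 members, Cebpb, up to 4 called genes of smallest p per list and the 3 genes most like each member among those averaging at least 20 RPM in a group. The members, gene lists and markers were chosen with earlier results of these data known.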

Additional observations from a re-analysis of the deposited data

Results flagged for a closer look

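The highest and lowest library of each member was compared with its nearest neighbour in the 7-week groups of 4 libraries, 24 sets in all; chance alone sets apart about 1 in 20 sets. In 7-week blood Ly6C+ monocytes, 1 library had 186.5 RPM of Ly6c1, where the next had 87.0 RPM, and its share of Ly6c1 among Ly6C reads was 6.22%. In 7-week marrow Ly6C- cells, 1 library had 3.34 RPM of Ly6i, where the next had 14.4 RPM. In 7-week MDP, 1 library had 11.9 RPM of Ly6d, where the next had 2.13 RPM, and 1 library had 0.197 RPM of Ly6i, a value of 1 read, where the others had 0.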

How the results depend on the processing

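Of 45 member results followed, 24 stayed on their side of the threshold in every alternative run. Ly6c1 between ko and wt kept its call in all 14 alternatives of each gate, with log2 ratios of 4.34 to 4.91 in Ly6C+ and 3.63 to 5.29 in Ly6Cint cells. The log2 difference in the Ly6c1 to Ly6c2 ratio ranged 3.43 to 3.78 when single libraries were left out. Deviations of same-numbered ko and wt libraries had a correlation of 0.056 in Ly6C+ and -0.283 in Ly6Cint cells. Over all groups of the knockout table such correlations ranged -0.322 to 0.411. With 2 libraries a group they cannot show whether the libraries were paired. With a replicate block the ratio difference was 3.61 (exact permutation p = 0.125, with the gates taken as independent) and limma called 151 and 702 genes. The difference between the ko effects on Ly6c1 in the gates, -0.17, turned to 0.11 with a pseudocount of 0.25 RPM, to 0.21 with edgeR, and ranged -1.0 to 0.66 when single libraries were left out; 0.12, 0.66 and 0.30 were the positive values, without the first wt Ly6C+, the second wt Ly6Cint and the first ko Ly6Cint library. Ly6e in 24 h blood grafts against the cells before transfer, 0.48, turned to -0.11 with quantile scaling. The cause was not tested. Genes called between ko and wt ranged 34 to 405 in Ly6C+ and 224 to 913 in Ly6Cint cells. In Ly6Cint cells 413 were higher and 308 lower, against 402 and 511 with edgeR, 387 and 461 with DESeq2 and 339 and 323 with quantile scaling. In Ly6C+ cells 91 were higher and 53 lower, against 72 and 60 with edgeR. Counting limits the low groups, such as Ly6d in ko and wt blood, to a few reads.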

Other observations

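Among 28 other listed genes with a Ly6 domain, the highest group means were those of Plaur, the urokinase receptor (320 RPM), Cd177 (169 RPM), Gpihbp1, a lipoprotein lipase carrier (43.6 RPM), and Ly6g, the neutrophil antigen (29.2 RPM), and 8 were at 0 in every group. Of 30 interferon response genes in the 7-week table, 27 were called higher in marrow Ly6C+ cells than in cMoP, where 15.3% of all tested genes were called higher. In blood, 17 were called lower in Ly6Cint than in Ly6C+ cells, where 19.2% of all tested genes were, and 20 were called lower in Ly6C- than in Ly6C+ cells, where 10.5% were.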
